A study of Homo sapiens with 36 samples.

Results

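CPSF5, encoded by NUDT21, is the RNA-binding subunit of cleavage factor Im (CFIm), a complex that pairs it with CPSF6 or CPSF7. CFIm binds the letters UGUA in nascent transcripts upstream of poly(A) sites and helps the cleavage and polyadenylation machinery choose among them. Human cells with little CPSF5 shift many mRNAs to upstream poly(A) sites and so to short 3' UTRs. Where CPSF5 sat on the RNA of HEK293T cells was described from an enhanced crosslinking and immunoprecipitation (eCLIP) experiment, in which RNA fragments recovered with the protein are counted against fragments of the input lysate.

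The data come from 2 CPSF5 immunoprecipitated (IP) libraries, set against 2 input libraries, of HEK293T cells, an established human embryonic kidney line grown with no treatment named. The antibody was directed against either the protein or a V5 tag, and the labels do not say which was used for CPSF5. Nothing in them tells whether the replicates of a library type came from different cultures. All 38826 windows in the authors' list of reproducibly enriched CPSF5 windows were taken, out of 788098 entries in the lists of 9 proteins, which cover 601384 distinct windows. A window is a stretch of at most 100 nt of an annotated feature, and the CPSF5 windows fell in 6904 gene entries, of which 188 join overlapping genes. The table holds no level of CPSF5 itself and no expression marker of the line, so neither label could be checked in it.

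Over the list, 2091353 IP reads were set against 305082 input reads, with a median of 31 IP reads and 4 input reads per window. No input read was counted in 8.41% of the windows. Enrichment is the authors' log2 odds ratio of IP over input, deposited as the lower and the higher of the 2 replicates, without saying which library gave which. Its median was 2.81 for the lower value and 3.94 for the higher one, and the median gap between replicates was 0.76. The gap exceeded 2 in 11.2% of windows. Where 2 enrichments are given for a window, they are those of the lower and the higher replicate. The highest q-value over the replicates was at most 0.05 in 24444 windows, 63% of the list, and reached 0.1999. Reads were summed over replicates in the deposited table, so no test between IP and input libraries could be made, and all counts, shares and medians below describe the called windows. A raw ratio of IP to input reads is not a fold change, since total depth is not given, and a window that is not listed may be unbound or too thinly covered.

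UGUA is the letter string CFIm is known for, and 5 stretches of transcript-strand sequence show it inside CPSF5 windows. Only windows that happen to lie inside a RefSeq promoter sequence of another gene (GRCh38.p14) could be read, because no genome sequence was used. The deposited GC content matched that sequence in 179 of 179 such windows, which places both on the same coordinates. Among them were 20 3' UTR windows of at least 90 nt, of which 10 held TGTA on the transcript strand (written as DNA). In 98-nt stretches, 1 from each promoter on each strand, 16.5% of 70232 held it. The median GC content was 44.4% in the 20 windows and 59.2% in the promoter stretches, so the base composition differs between them as well. The stretches printed here, with 1 TGTA each in capitals, come from the more enriched of those windows.
MCL1, an anti-apoptotic BCL2 family member (chr1:150574605-150574630, minus strand): tggttgtcaaaTGTAgtgtgtttccc
TTBK2, a tau tubulin kinase (chr15:42739102-42739127, minus strand): tataggccaccTGTAcataaaagtgt
HOXB6, a homeobox transcription factor (chr17:48595853-48595878, minus strand): tgtgttgtgttTGTAgtcttgtctta
SEC24C, a COPII coat subunit (chr10:73772121-73772146, plus strand): catctttaattTGTAaagaaataaaa
STRN4, a striatin family scaffold (chr19:46719731-46719756, minus strand): cctgaactcccTGTAtatctgtataa
The MCL1 window held 81 IP reads and 2 input reads, with log2 enrichments of 4.19 and 6.54. The TTBK2 window held TGTA 4 times, with 26 IP reads and 1 input read. The others ranged from 20 to 86 IP reads and from 3 to 18 input reads.

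Windows around primary miRNAs, the long transcripts from which Drosha cuts miRNA hairpins, had the highest median enrichment of all classes on the list. Mature miRNAs with CPSF5 windows around their hairpins are printed to show the seed, bases 2 to 8 of the mature RNA, which pairs with target mRNAs. Sequences are from RefSeq (GRCh38.p14), with the seed in capitals, and the set was picked after its values were seen so that each seed appears more than once. It leaves out loci with more IP reads, among them miR-186 and miR-27b.
hsa-miR-17-5p: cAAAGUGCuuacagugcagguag
hsa-miR-20a-5p: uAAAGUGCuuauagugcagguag
hsa-miR-93-5p: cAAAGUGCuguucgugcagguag
hsa-miR-106b-5p: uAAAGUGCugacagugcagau
hsa-miR-19a-3p: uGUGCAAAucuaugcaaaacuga
hsa-miR-19b-3p: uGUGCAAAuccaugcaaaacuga
hsa-miR-92a-3p: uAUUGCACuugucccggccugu
hsa-miR-25-3p: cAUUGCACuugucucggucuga
hsa-miR-301a-3p: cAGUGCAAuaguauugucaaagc
hsa-miR-130b-3p: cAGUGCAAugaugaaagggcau
hsa-let-7i-5p: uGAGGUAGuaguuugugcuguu
hsa-miR-98-5p: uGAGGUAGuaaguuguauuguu
hsa-miR-16-5p: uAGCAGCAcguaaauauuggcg
hsa-miR-15b-5p: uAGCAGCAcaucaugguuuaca
AAAGUGC is carried by miR-17 and miR-20a of the MIR17HG cluster and by miR-93 and miR-106b of an MCM7 intron. AGUGCAA links miR-301a in an SKA2 intron with miR-130b, and GAGGUAG links let-7i with miR-98 in a HUWE1 intron.

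CPSF5 windows lay mostly in 3' UTRs, which held 30615 windows (78.9%, Wilson 95% interval 78.4 to 79.3 for counting error alone) and 80.7% of the IP reads. Introns held 3057 windows (7.87%), coding sequence 2359 (6.08%), stop codon windows 1083 (2.79%) and exons annotated to long noncoding RNA (lncRNA) transcripts 661 (1.70%). The 3' UTR windows carried 8.90 IP reads per input read in sum, coding windows 3.25 and lncRNA exon windows 3.09. Median enrichment in the lower replicate was 2.98 in 3' UTRs, 2.52 in introns and 2.13 in coding sequence. The class with the highest median was the flank of primary miRNAs, at 3.84, with only 78 windows. Ranked by lower-replicate enrichment, 930 of the first 1000 windows were in 3' UTRs, as were 85 of the first 100, where 10 were in introns. Of the 3' UTR windows 78.7% were in no other protein's list, against 13.5% of the coding windows and 7.14% of the 5' UTR windows.

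**Figure D1:**
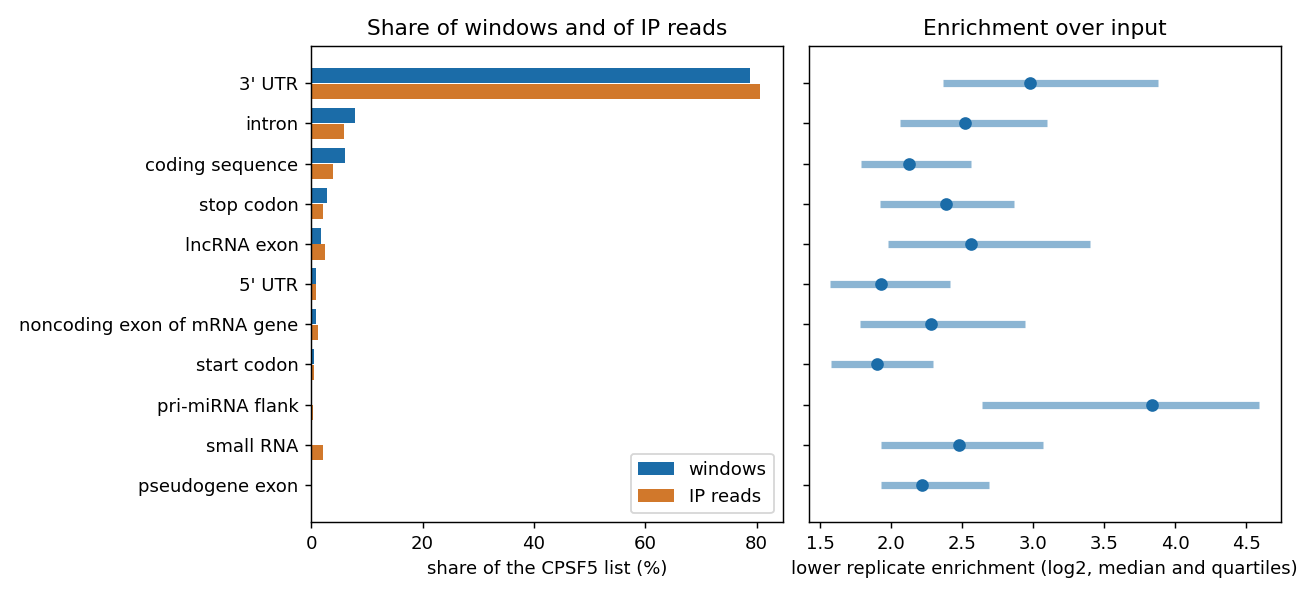
Left, the share of CPSF5 windows (blue) and of their summed IP reads (orange) in each feature class, in percent. Right, the log2 enrichment of IP over input in the lower replicate, with the median as a point and the quartiles as a bar; 3' UTRs hold 78.9% of the windows, and the flanks of primary miRNAs have the highest median, 3.84.

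The 3' UTR windows were AU-rich, with a median GC content of 34.3%, against 50% for coding and 62.6% for 5' UTR windows of the same list. GC content and enrichment ran in opposite directions within 3' UTRs. From the lowest to the highest quartile of lower-replicate enrichment, the median GC content was 38%, 35.4%, 33.3% and 31.3%. Median input reads in the same quartiles were 7, 4, 3 and 1, and median IP reads were 28, 26, 36 and 53, so both sides of the ratio moved along with base composition. Their separate parts in the trend were not tested. In the lists of CPSF6, the partner subunit, and of MBNL2, the list with the next highest 3' UTR share, the median GC content of 3' UTR windows was 43.6% and 52%.

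The 3' UTR windows with the highest lower-replicate enrichment had almost no input reads, and their replicates differed by 0.03 to 1.05 on the log2 scale. The strongest was in SDE2, a gene with roles in genome stability and splicing (chromosome 1, 225983002 to 225983101, hg38, minus strand), with 493 IP reads and no input read. Its log2 enrichments were 9.04 and 9.07, and its GC content was 18%. The next were in C5orf15, with 218 IP reads and none in the input, and in TRUB1, a pseudouridine synthase gene, with 236 and none. PREPL, a prolyl endopeptidase-like gene, followed with 216 IP reads and no input read. SLC7A2, a cationic amino acid transporter gene, PTPN13, a tyrosine phosphatase gene, and PAPSS1, which encodes an enzyme that makes the sulfate donor PAPS, also had no input read. FSTL1, a secreted follistatin-like glycoprotein gene, had 406 IP reads and 1 input read. All 8 windows were in no other protein's list, and their enrichments ran from 7.70 to 9.04 in the lower and from 8.01 to 9.07 in the higher replicate. With input reads at 0 or 1, the size of these values rests on the IP side and on the authors' model.

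Most 3' UTRs with any CPSF5 window had several. The 6081 genes had a median of 3 and a mean of 5.03 windows in their 3' UTRs, 1362 genes had 1, and 126 genes had 20 or more. LNPEP, which encodes a membrane aminopeptidase that cleaves oxytocin and vasopressin, had the most, with 58 windows holding 3200 IP reads and 227 input reads. POMK, the protein O-mannose kinase gene, followed with 45. SLC7A1, another cationic amino acid transporter gene, and ETNK1, an ethanolamine kinase gene, had 36 each. SFT2D2 had 35, MIB1, a ubiquitin ligase gene of the Notch pathway, 34, SOAT1, a cholesterol esterification gene, 33, and PANK3, a pantothenate kinase gene, 32. TNPO1, which encodes the import receptor transportin, and the joined entry MRPS6:SLC5A3 also had 32, with fewer IP reads. Many windows did not go with the highest enrichment: the highest lower-replicate value in these genes was between 4.90 in MIB1 and 6.17 in SLC7A1. Across all genes, however, the median of the strongest window was 2.84 in genes with 1 window and 5.39 in genes with 20 or more, which a gene with more windows has more chances to reach.

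Touching windows formed runs. Of the 30615 windows, 23694 (77.4%) adjoined at least 1 other listed 3' UTR window, in 6864 runs of 2 or more, while 6921 stood alone. There were 1366 runs of 5 or more windows and 160 of 10 or more. The longest, 24 windows over 2395 nt, was again in LNPEP (chromosome 5, 97033323 to 97035717), with 1725 IP reads and 98 input reads. Its lower-replicate enrichment stayed between 2.94 and 5.02 along the whole run. CALU, a calcium-binding protein gene of the secretory pathway, had a run of 23 windows, TOMM20, the mitochondrial import receptor gene, and PHF6, a zinc finger gene, had 20 each, LBR, the lamin B receptor gene, 19 and SLC25A24, a mitochondrial carrier gene, 18. TLE4 also had a run of 18, with fewer IP reads.

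Windows in longer runs were better covered. The median IP reads per window were 22 for lone windows and 69 in runs of 10 or more, and the median lower-replicate enrichments were 2.63 and 3.43. The share at a q-value of at most 0.05 was 48.1% for lone windows and 88.1% in runs of 10 or more, against 63% over the list. Within runs of 3 or more, the window with most IP reads was an interior one in 2495 of 3850 runs (64.8%), while interior windows made up 56.4% of the windows of those runs. The share of runs counts each run once, whereas the share of windows pools them, so long runs weigh more in the latter. Separate runs in 1 3' UTR were common: 56.7% of the genes had at least 2 runs or lone windows apart from each other. Beside these, 52.0% of CPSF6 and 47.8% of MBNL2 3' UTR windows were in runs of touching windows, and genes with a 3' UTR window had a median of 2 in both lists. These lists differ in length and in the protein recovered. Their library depth is unknown and may differ, as may the antibody, and no test between them was made.

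**Figure D2:**
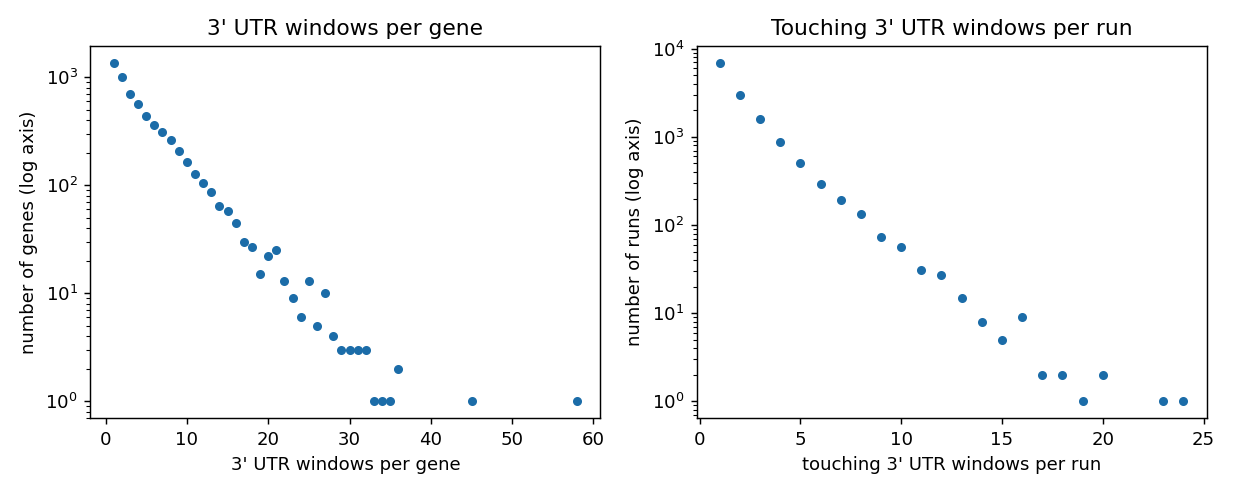
Left, the number of genes (log axis) by how many CPSF5 windows their 3' UTR holds. Right, the number of runs (log axis) by how many touching 3' UTR windows they join; 1362 genes have 1 window and LNPEP has 58, and the longest run has 24 windows.

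The covered share of a 3' UTR was taken over 3' UTRs with at least 1 listed window, which sets a higher floor for short ones. The number of windows could be rebuilt from the window numbering for 4122 3' UTRs, and in those a median of 25.9% of the windows was listed. In 3' UTRs of 1 to 5 windows 54.3% of all windows were listed, and in those of 41 or more 13.0%. All windows were listed in 210 of the 4122. Among 3' UTRs of at least 20 windows, those with the highest share listed were of SDE2 (25 of 26), TOMM20 (26 of 28) and CASP2, a caspase gene (25 of 27). In SDE2 the missing window split the 3' UTR into a run of 14 windows at the gene end and a run of 11 upstream of it, with 25 to 628 IP reads and 0 to 22 input reads per window.

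The strongest window of a gene often lay close to the gene end. Of 5959 genes with a 3' UTR window and a single name, 5953 were matched to an end in the RefSeq gene table, which stands for the most distal annotated poly(A) site. The strongest window was centred within 200 nt of that end in 1972 genes (33.1%), while 15.4% of all windows of these genes lay there. In the 2399 genes with at least 5 windows the shares were 29.9% and 11.3%. Ranking the windows of a gene by IP reads gave 26.2% in place of 33.1%. The strongest window was more than 1000 nt upstream of the end in 38.5% of genes. Past the end by over 50 nt lay 60 windows. That count is limited by annotation, since the windows counted are pieces of annotated 3' UTRs.

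Enrichment rose toward the end, while median IP reads changed little. In the last 100 nt, the median lower-replicate enrichment was 3.88, the next 100 nt had 3.46, the next 3.15 and the next 3.06, and from 500 to 2000 nt it lay between 2.81 and 2.93. Median IP reads were 32 and 37 in the last 200 nt and between 30 and 35 from 200 to 2000 nt. Median input reads were 2 and 3 in the last 200 nt and 4 from 200 nt on. The share of windows that were the strongest of their gene was 49.3% in the last 100 nt, 37.1% in the next and 12.2% to 14.8% beyond 1000 nt. Only long 3' UTRs reach the far distances, and the only window of a gene counts as its strongest. Neither was accounted for in the counts and shares by distance. Median GC content was 29.6% in the last 100 nt and 34.7% in the next. The lower input count near the end therefore moves with the higher enrichment, and its part in it was not tested.

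**Figure D3:**
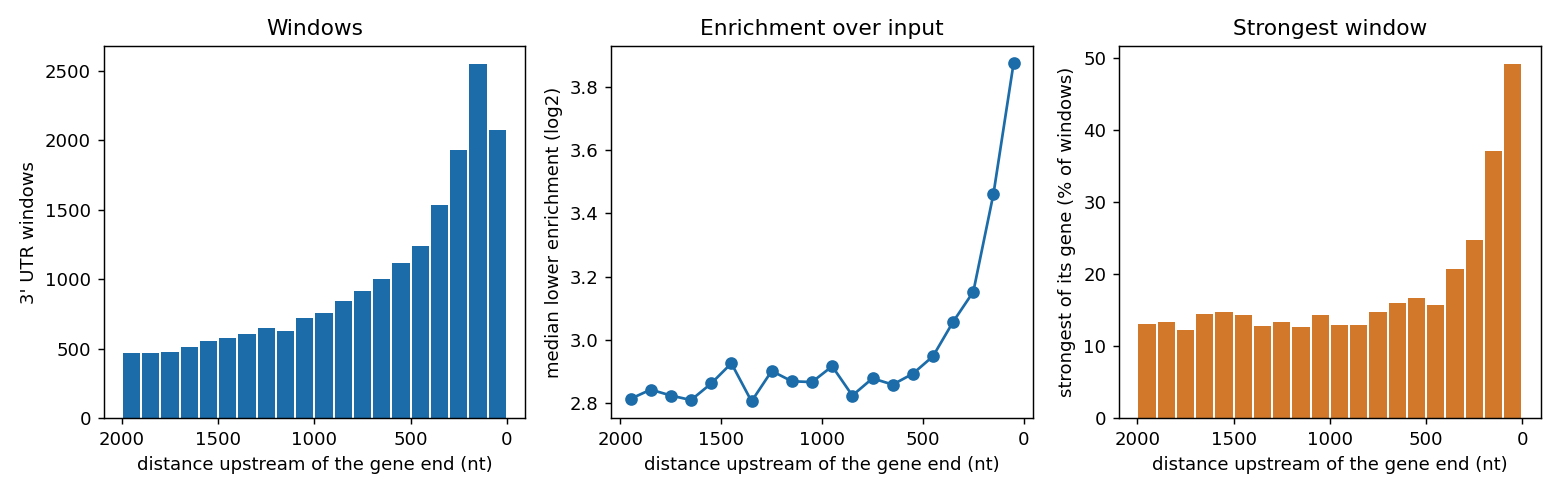
CPSF5 3' UTR windows by the distance of their centre upstream of the RefSeq gene end, in 100-nt steps, with the end on the right of each panel. The number of windows, the median log2 enrichment in the lower replicate (3.88 in the last 100 nt) and the percentage of windows that are the strongest of their gene (49.3% there) all peak within 200 nt of the end. Only long 3' UTRs reach the far steps, and the only window of a gene counts as its strongest.

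The CFIm subunits' own transcripts were on the list. All 3 had 3' UTR windows: CPSF6 had 23 with 2742 IP reads and 207 input reads, NUDT21 13 with 1036 and 85, and CPSF7 6 with 211 and 55. Among all RefSeq protein-coding genes, expressed or not, 30% had a 3' UTR window. All 12 SR protein genes and 26 of 27 hnRNP genes had one too, so being listed was not particular to CFIm transcripts. In NUDT21 (chromosome 16, minus strand) the windows fell into 3 groups. A run of 8 windows covered the end of the gene, led by the window at the very end (56429133 to 56429231), with 170 IP reads, 1 input read and log2 enrichments of 6.28 and 7.06. A lone window stood about 2137 nt upstream of the end, with 21 IP reads, 9 input reads and log2 enrichments of 1.92 and 2.27. A run of 4 windows between 3230 and 3529 nt upstream had 23, 35, 61 and 104 IP reads in the direction away from the end, against 4, 6, 11 and 5 input reads. The distal and the upstream run thus stood apart, with 1 weak window between them.

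CPSF6 had strong windows in 3 places of its 3' UTR. The window centred 148 nt upstream of the end held 389 IP reads and 3 input reads, with log2 enrichments of 6.52 and 7.16. A run of 3 windows between 1434 and 1632 nt upstream held 151, 251 and 203 IP reads, against 12, 6 and 19 input reads. A run of 8 windows between 4105 and 4798 nt upstream held up to 343 IP reads, where the input had 5. CPSF7 had 3 windows at the end, the strongest with 63 IP reads and 4 input reads, and log2 enrichments of 4.51 and 4.56.

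Genes reported in human cells as changing their poly(A) site when CFIm is lost were described as a list of 10, chosen with earlier results of these data known. A 3' UTR window was found in 9 of them. Among all 20056 RefSeq protein-coding genes, matched by symbol and whether or not the cells express them, 6527 (32.5%) had any CPSF5 window and 6021 (30%) a 3' UTR window. The 9 genes had a median of 13 windows per gene, beside a median of 3 over all 6081 genes with a 3' UTR window. IGF1R, a growth factor receptor gene, had 27, VMA21, a V-ATPase assembly factor gene, 20, PAK2, a kinase gene, and GSK3B, the glycogen synthase kinase gene, 19 each, and DICER1, the pre-miRNA processing enzyme gene, 13. CCND1, the cyclin D1 gene, had 2, PAK1 had 1 and TIMP2 was not listed. Several of these 3' UTRs are long, and length was not accounted for in the count.

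Several of these genes also held separate groups of windows. VMA21 had a run of 7 windows up to the end, with 196 IP reads and 6 input reads in the last window, and a run of 4 between 2202 and 2496 nt upstream with 148 and 243 IP reads in its middle windows, against 6 and 26 input reads. The GSK3B window nearest to the end was centred 546 nt upstream of it. Its runs of touching windows lay at 546 to 844 nt, 2435 to 3031 nt and 4820 to 5317 nt upstream of the end, and their strongest windows had lower-replicate values of 6.12, 5.36 and 5.39, with 58, 58 and 103 IP reads against 0, 1 and 1 input reads. IGF1R had its strongest window 150 nt from the end, with 140 IP reads and 1 input read, and CCND1 had both of its windows 2544 and 2644 nt upstream.

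**Figure D4:**
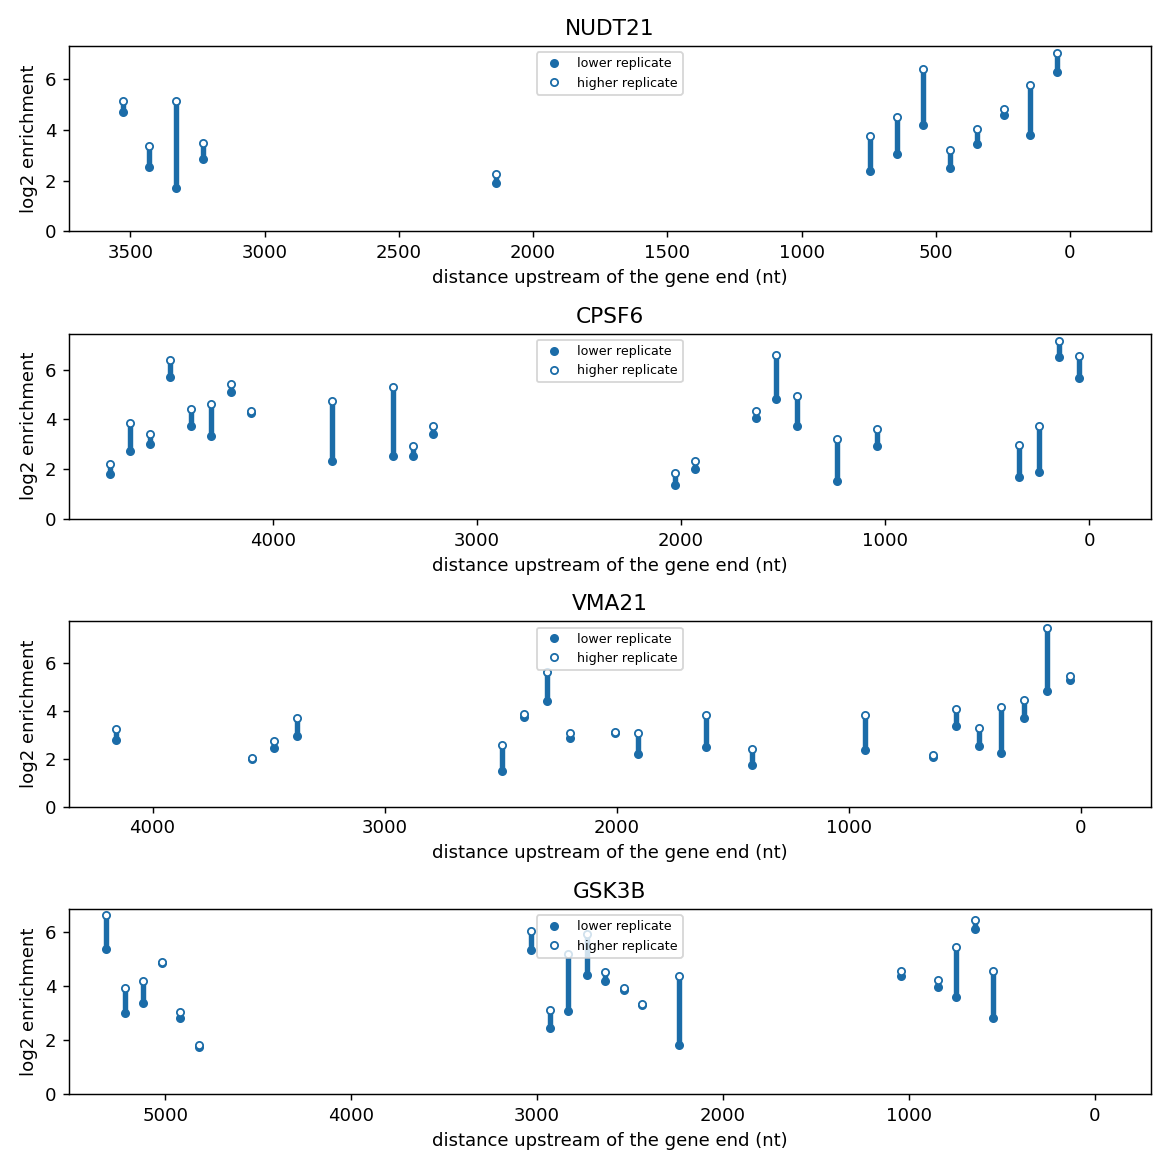
Log2 enrichment of every listed CPSF5 3' UTR window of NUDT21, CPSF6, VMA21 and GSK3B by the distance of its centre upstream of the RefSeq gene end (at 0, right). Filled points are the lower and open points the higher replicate; the strongest windows of NUDT21 and CPSF6 lie within 150 nt of the end, with further groups more than 3000 nt upstream.

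Other lists hold genes of mRNA 3' ends and RNA binding. Their counts stand beside the 30% of all protein-coding genes with a 3' UTR window, a share that includes genes these cells may not express. Of 7 CPSF subunit genes, 5 had a window and 4 a 3' UTR window: CPSF2 had 10 with 262 IP reads and 45 input reads, FIP1L1 2 with 90 and 4, SYMPK 1 with 55 and 18, and CPSF4 1 with 26 and 4. WDR33 had 2 windows outside its 3' UTR, and CPSF1 and CPSF3 were not listed. Of 12 genes for CstF, CFIIm and poly(A) tail factors, 10 had a 3' UTR window, with a median of 3. PABPN1, the nuclear poly(A)-binding protein gene, had 3 with 806 IP reads and 256 input reads, and PABPC1, its cytoplasmic counterpart, had 4 with 415 and 118. RBBP6 also had 4, with 90 and 23, and so did PAPOLA, the poly(A) polymerase gene, with 149 and 27.

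Genes of regulatory 3' UTR-binding proteins formed another list. Of 18, 14 had a 3' UTR window, where 30% of all protein-coding genes had one, expressed or not. The 14 had a median of 11.5 such windows, beside 3 over all genes with at least 1. MSI2, a musashi gene, had 27, PUM2, a pumilio gene whose protein recognises a UGUA-containing element, 21, and KHSRP, an AU-rich element-binding protein gene, 19. The 12 SR protein genes all had 3' UTR windows, with a median of 7, led in IP reads by SRSF2 (2668 IP reads, 261 input reads in 9 windows). SRSF1 had 14 windows with 1881 and 461, SRSF11 8 with 566 and 132, and SRSF9 4 with 414 and 54. Of 27 hnRNP genes, 26 had 3' UTR windows, with a median of 8. HNRNPA2B1 had 8 with 7892 IP reads and 1194 input reads, HNRNPK 14 with 2966 and 324, PTBP1 15 with 3073 and 394, and HNRNPH1 6 with 1594 and 664. Genes of the CCR4-NOT complex, other deadenylases and proteins associated with them had a 3' UTR window in 14 of 18 cases, with a median of 4. Among them were CNOT6 (17 windows), BTG2 (11) and TOB1 (7), while the most reads of PARN were in an intron. In the miRNA pathway 6 of 12 genes had one, AGO2 with 19 and TNRC6B with 15, DICER1 was among them too, and DGCR8 had 15 windows outside its 3' UTR. Of 21 abundant lncRNAs, 14 had a window and 1 a 3' UTR window. The shares of protein-coding genes do not cover lncRNAs, and no share over all lncRNA genes was taken.

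Ribosomal protein and histone mRNAs have short 3' UTRs, which can hold few windows, and length was not accounted for. Among all protein-coding genes, expressed or not, 32.5% had any CPSF5 window and 30% a 3' UTR window. Of 86 ribosomal protein genes, 65 had a window but 33 a 3' UTR window, with a median of 1. RPL15, RPS4X, RPS16 and RPS13 held most IP reads. RPL5 had the strongest of these 3' UTR windows, with 168 IP reads, 1 input read and a lower-replicate enrichment of 6.37. Of 68 replication-dependent histone genes, whose mRNAs end in a stem-loop and not in a poly(A) tail, 26 had a window and 6 a 3' UTR window. H4C3, H3C2, H2AC11 and H2AC18 held most IP reads, between 204 and 274, against 73 to 142 input reads. Histone and ribosomal protein genes include near-identical copies whose reads the counting may have split. The median strongest 3' UTR enrichment in the lower replicate was 2.19 for the 6 histone genes and 3.07 for the 33 ribosomal protein genes, beside 4.05 over all genes with a 3' UTR window.

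Primary miRNA transcripts stood out by enrichment, not by number. The host transcript MIR17HG, which carries the miR-17 to miR-92a cluster, had 43 windows with 13837 IP reads and 941 input reads. Of these, 15 windows from 500 nt before to 500 nt after the 6 hairpins (chromosome 13, 91350605 to 91351391) held 77.7% of the IP reads, 10752 against 289 input reads. Their median lower-replicate enrichment was 5.67, and that of the other 28 windows was 2.02, with 3085 IP reads and 652 input reads. The strongest window, which overlaps the 3' end of the miR-19a hairpin (91350953 to 91351049), held 1433 IP reads and 19 input reads, with log2 enrichments of 6.84 and 7.16. Only 1 of the 15 was in no other list, and the whole transcript had 24 windows in the CPSF6 list, 14 in that of RBM10 and 10 in that of RNPS1.

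Windows on both sides of a hairpin were found at 21 of the 25 hairpins near windows of the miRNA classes. These 25 were picked through such windows. Of the 127 hairpins with any CPSF5 window within 500 nt, many had none upstream, such as miR-503 and miR-196b. Others had none downstream, such as let-7b and miR-101-2. The share of the 127 with windows on both sides was not taken. At let-7i (chromosome 12, 62603686 to 62603769) the 5 windows upstream within 500 nt held 1159 IP reads and the 6 downstream 696, while the window over the hairpin held 66. The upstream windows had 203, 123, 131, 451 and 251 IP reads in the direction of transcription, against 5, 3, 5, 10 and 3 input reads. At miR-301a, inside SKA2, the hairpin window held 28 IP reads, the 5 windows upstream 726 in sum and the 4 downstream 271. In the window next to it downstream, 160 IP reads and not a single input read were counted, and log2 enrichment was 7.62 and 7.88. Over the 91 windows annotated as primary miRNA flank or hairpin, 7143 IP reads stood against 446 input reads in 19 gene entries. At both loci the hairpin window, shorter at 84 and 86 nt than most of its neighbours, held fewer IP reads than the window on either side. At miR-186, in ZRANB2, the hairpin window held 155 IP reads and 25 input reads, between 440 and 24 upstream and 84 and 7 downstream, so its count was not the lowest there.

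**Figure D5:**
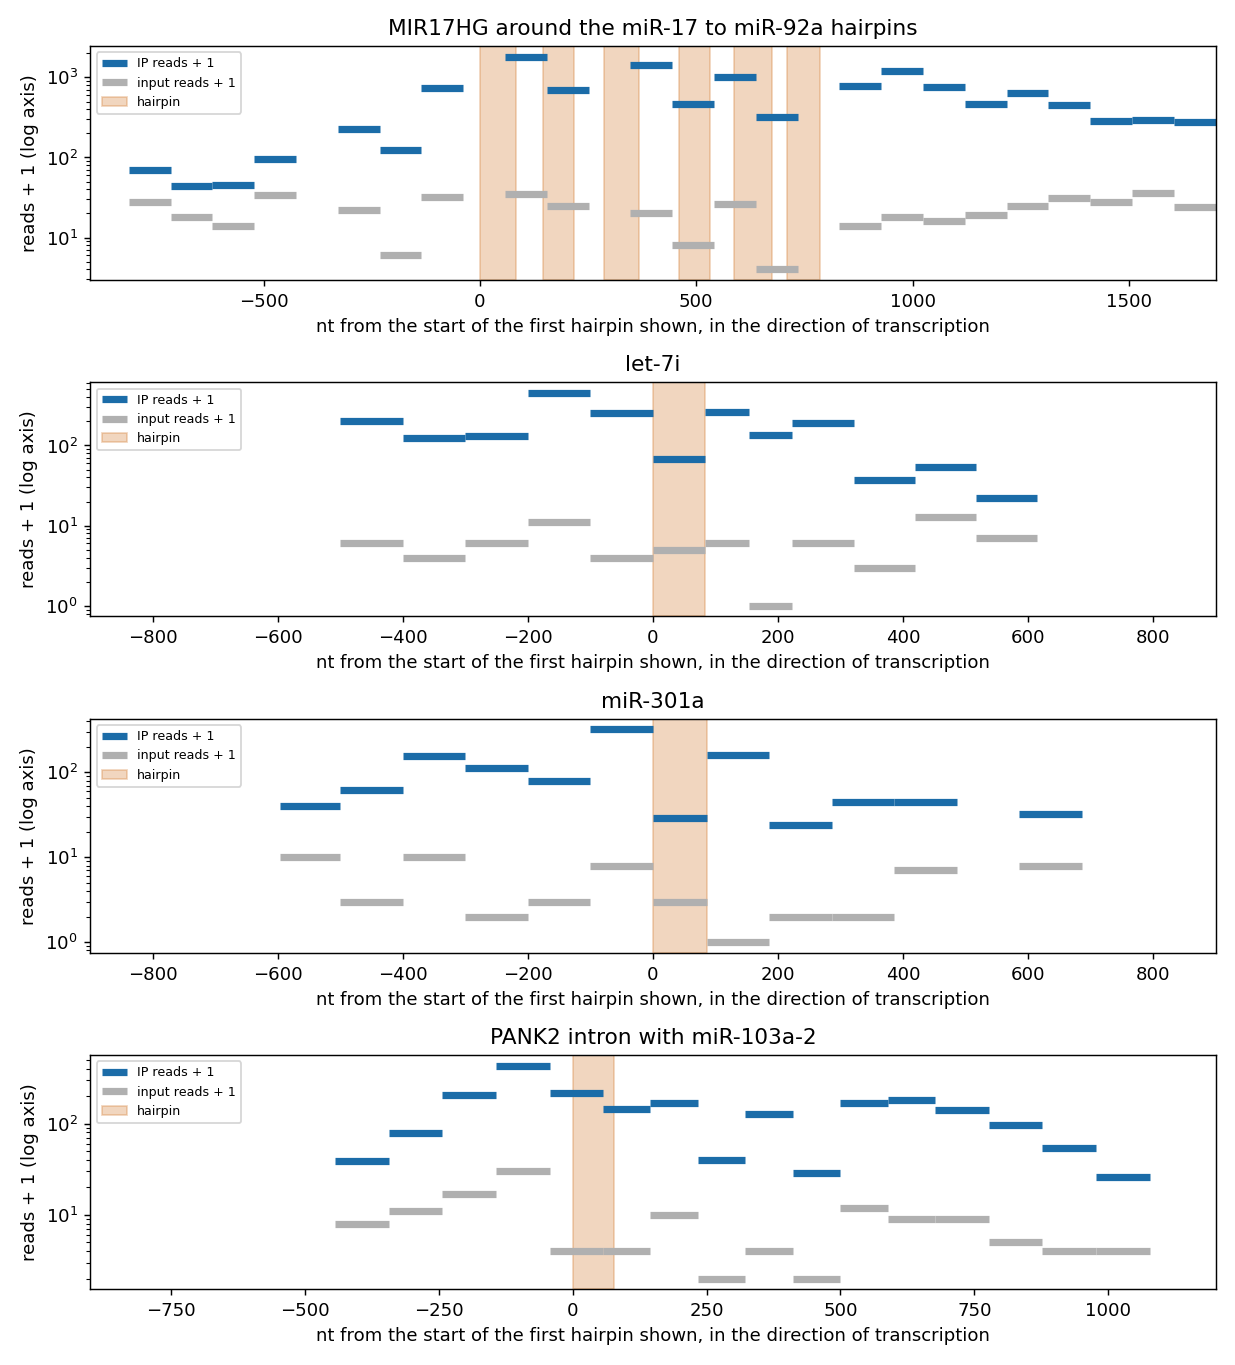
IP reads (blue) and input reads (grey), each plus 1 on a log axis and summed over 2 replicates, of the listed CPSF5 windows around 4 sets of miRNA hairpins (shaded), by distance in nt along the transcript. IP reads exceed input reads in every window shown, all of which were listed because they were called enriched. The let-7i hairpin window holds 66 IP reads, the window before it 251 and the window after it 264.

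Intron windows also lay around hairpins. Of the 3057 intron windows, 156 (5.10%, Wilson 95% interval 4.38 to 5.94 for counting error alone) lay within 500 nt of a hairpin of the same strand, in 41 gene entries, and held 7.92% of the intron IP reads. At a q-value of at most 0.05 the share of windows was 9.80%. The 156 windows had a median lower-replicate enrichment of 3.11, and the other intron windows had 2.50. Among the 100 most enriched intron windows 25 were of this kind. Beside this, 0.325% of CPSF6 and 0.321% of MBNL2 intron windows lay as close to a hairpin, 166 of 51034 and 11 of 3424. In the remaining lists the share was between 0 and 0.713%. RNPS1 had 161 such windows of 24142, GRB2 122 of 283403 and RBM10 105 of 22004. EIF4B had 65, RBM22 31 and LGALS3 0. Numbers near that of CPSF5 thus occurred in several lists of greater length, not in that of CPSF6 alone. Of the 1562 hairpins in the RefSeq table, 127 had a CPSF5 window within 500 nt.

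PANK2, a pantothenate kinase gene, held the longest intron run, 17 windows over 1620 nt (chromosome 20, 3917051 to 3918670), which spans the miR-103a-2 hairpin. The run had 2166 IP reads and 124 input reads, and its strongest window, which reaches into the hairpin, had 217 IP reads, 3 input reads and log2 enrichments of 6.01 and 7.71. PANK2 had no listed 3' UTR window. In the MCM7 intron with miR-25, miR-93 and miR-106b, a window between hairpins held 251 IP reads and 1 input read, with log2 enrichments of 7.30 and 8.07. The next window held 386 IP reads and 3 input reads, and both were also listed for CPSF6. DALRD3, host of miR-191 and miR-425, had 9 intron windows near the hairpins with 656 IP reads and 8 input reads, all in no other list. Near miR-221 and miR-222, MIR222HG had 7 windows with 912 IP reads and 95 input reads and, in the entry joined with MIR221, 5 with 575 and 33. The intron of SREBF2, a regulator of cholesterol synthesis, had 10 windows around miR-33a, with 441 IP reads and 24 input reads, all in no other list.

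UGUA occurred in 3 of the 6 hairpins of the miR-17 to miR-92a cluster, in 9 of the 25 hairpins near windows of the miRNA classes (36%) and in 24.6% of all 1562 hairpins. These are counts of the 4 letters on the transcript strand of the hairpin alone. The flanks, which hold most of the reads, are not in the table.

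With those near hairpins included, the 3057 intron windows lay in 1173 genes, 667 of which had a single one, and 69.5% of these genes also had a 3' UTR window. Touching runs held 32.5% of intron windows, against 77.4% of 3' UTR windows. The share of the list in introns was 7.87%, but 3.27% with at least 50 IP reads per window and 4.51% at a q-value of at most 0.05. Of the intron windows 64.1% were in no other list, and these had a median GC content of 32.5%, against 51.0% for those that were in another.

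The strongest intron windows in no other list had IP reads against few or no input reads. RANBP17, an importin family gene (chromosome 5, 170885593 to 170885692), had 72 IP reads against 0 input reads, with log2 enrichments of 6.59 and 6.64. HPF1, which encodes a cofactor of PARP1 in serine ADP-ribosylation, had 370 IP reads and 3 input reads, with 6.58 and 6.96. HPS1, a lysosome-related organelle gene, had 72 and 0, and SGO1, the shugoshin gene that protects centromeric cohesion, 80 and 0. The entry of DLEU2 with miR-16-1 had 72 and 0 in a window of 52 nt (chromosome 13, 50049084 to 50049135) that overlaps the end of the neighbouring miR-15a hairpin. DIDO1 followed with 71 and 0, ANKH, a pyrophosphate transport gene, with 516 and 11, and FAM149B1 with 57 and 0. Their GC content was between 26.3% and 35%, in the range of the 3' UTR windows.

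The genes with most intron windows had moderate enrichment. SLIT2, a secreted guidance factor gene, had 48, with 1506 IP reads and 408 input reads and a median lower-replicate enrichment of 2.10. HOXC6 had 45, CAPN15 39, DAZAP1 32, SGO1 29 and HOXA9 27. All 29 SGO1 windows were in no other list, with 1154 IP reads, 95 input reads and a median of 3.06, whereas 4 of the 39 CAPN15 windows were. The medians of HOXC6, CAPN15, DAZAP1 and HOXA9 lay between 1.94 and 2.29, below the 2.52 of all intron windows.

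Several of the most extreme intron windows were shared with other proteins. A single window in BTBD2 (chromosome 19, 1998553 to 1998650) held 11356 IP reads and 1 input read, with log2 enrichments of 12.25 and 12.66, and made up 9.17% of all intron IP reads. TTC3, a ubiquitin ligase gene, had 1144 IP reads and no input read, ITPR2, an inositol trisphosphate receptor gene, 474 and none, and PARN, a deadenylase gene, 477 and none. All 4 windows were also in the lists of GRB2, LGALS3, MBNL2 and RNPS1. Single windows of MSMO1, PDE4D and RYR2 were also in the GRB2 list. Of 17 lone intron windows with at least 50 IP reads and a lower-replicate value of at least 5, 13 were in another list. The part of RNA common to several IPs in these windows was not tested. Without the BTBD2 window, introns held 5.41% of the IP reads, against 5.92% with it.

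Windows on exons of lncRNA-class transcripts lay in 197 gene entries. The annotation calls 100 of these entries lncRNA genes, with 436 windows, and 72 protein-coding genes, with 169 windows on noncoding transcripts, and the rest are pseudogenes or miRNA genes. NORAD, a cytoplasmic lncRNA with many pumilio elements, had 45 windows with 4607 IP reads and 577 input reads, and lower-replicate enrichments of 1.47 to 5.32. NEAT1, the scaffold of paraspeckles, had 32 windows with 7508 IP reads and 3252 input reads, but a median of 1.68. Its strongest window, 9177 nt after the RefSeq start, had 376 IP reads and 53 input reads, with log2 enrichments of 3.39 and 3.82. MALAT1, a nuclear speckle RNA, had 5 windows with 3189 IP reads and 2643 input reads and a median of 0.88. The 32 NEAT1 and 5 MALAT1 windows were all in other lists too, and 32 of the 45 NORAD windows were in none.

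Other lncRNAs had stronger windows. MIRLET7A1HG, the host of let-7a-1, let-7f-1 and let-7d, had 31 windows with 2937 IP reads and 271 input reads. Its strongest window (chromosome 9, 94175964 to 94176063) overlapped the let-7a-1 hairpin and had 106 IP reads against 0 input reads, which gave log2 enrichments of 6.73 and 7.68. HCG11 had 34 windows with 1462 IP reads and 113 input reads and a median of 3.51. FGD5-AS1 had 18 with 1367 and 167, and CTC-444N24.11 13 with 1162 and 58 and a median of 4.33. With at least 50 IP reads per window, 60 of the 197 entries were left, and 113 at a q-value of at most 0.05.

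Windows in the body of mRNAs were weaker and mostly shared. The strongest coding windows were in WNK1, a kinase gene that controls ion transport, with 2185 IP reads and 14 input reads, and in CASC3, an exon junction complex gene, with 526 and 7. Their replicates were far apart, at 6.15 and 9.15 in WNK1 and 5.36 and 8.27 in CASC3, and they were in 6 and 5 other lists. VPS13C, a lipid transfer protein gene, came next, with 100 IP reads, 6 input reads and log2 enrichments of 4.55 and 4.80. Of the 1083 stop codon windows, which border the 3' UTR by annotation, 623 (57.5%) touched a listed 3' UTR window. The strongest stop codon windows were in TSPAN5, a tetraspanin gene, in C5orf15, next to that gene's leading 3' UTR window, and in CDK1, the mitotic kinase gene, with 96, 103 and 60 IP reads against 2, 3 and 2 input reads.

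In 5' UTRs the strongest window was in DALRD3, the host of miR-191 and miR-425, with 50 IP reads against 0 input reads and log2 enrichments of 5.20 and 6.04. PABPC1, with 286 IP reads and 31 input reads, and COX7C, a cytochrome oxidase subunit gene, with 75 and 10, came next. Of the 364 5' UTR windows 13 lay within 500 nt of a hairpin, among them 3 of the first 5. In noncoding exons of mRNA genes MIR17HG led, followed by GTF2H2, a gene of the transcription factor TFIIH, with 57 IP reads against 0 input reads, and GTF2IP1 with 76 against 3. The last of these belong to families with near-identical copies, so their reads may be split or misplaced.

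Counted over all windows, MT-RNR1, the small mitochondrial rRNA gene, led in IP reads. It had 15164 IP reads against 15872 input reads in 2 windows and lower-replicate values of at most 0.87. PLS3, an actin-bundling plastin gene, had 39 windows with 14933 IP reads and 766 input reads, of which 13 formed 1 run up to the gene end. The PLS3 window with most reads, centred 950 nt upstream of the end, held 3138 IP reads and 44 input reads, with log2 enrichments of 6.50 and 7.58. MIR17HG and BTBD2 followed, with 13837 and 11757 IP reads. In BTBD2, 96.6% of the IP reads lay in the 1 shared intron window.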

How the data were processed

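Each of 9 proteins had 2 IP and 2 input eCLIP libraries from HEK293T cells. The authors deposited 1 table of enriched windows per protein. Build hg38 was used per the submitters' processing notes, and neither the aligner nor the window caller is named in them or in the labels. The deposited counts are whole-number IP and input read counts per window, summed by the authors over replicates. The log2 odds ratios deposited by the authors, and their p-values and q-values, give the lowest and highest value over replicates per the file headers. The authors deposited the GC fraction of each window, printed here in percent. Library depth is unknown, since only reads in listed windows are given.

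The 18 feature types were grouped into classes, all 7 intron types into one. Windows whose ends meet on a strand formed runs, joined entries were kept as deposited, and coordinates were made 1-based. Gene ends and miRNA sequences came from RefSeq tables of GRCh38.p14. Run and distance calculations were tested on simulated data. Python 3.11.15, numpy 2.4.6, pandas 2.3.3, scipy 1.17.1 and matplotlib 3.10.9 were used.

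Genes were named by rank: the 8 strongest and the 8 most windowed 3' UTRs, the 6 longest runs, the 8 strongest unshared and 6 most frequent intron targets, 8 lncRNAs, the 3 strongest windows of 4 other classes, the 5 genes with most IP reads and up to 4 members per gene list, with every CFIm and CPSF subunit. The strongest 3' UTR windows, unshared intron windows and windows of the 4 other classes were named from windows of at least 50 IP reads. Other rankings by enrichment had no read minimum. Among these were the class counts of the first-ranked windows, the strongest window of each gene and the choice of TGTA stretches. The counts near hairpins among the most enriched intron and 5' UTR windows had none either. Some genes that these rules name are not reported here. miRNA loci, profile genes and others beyond these ranks were chosen after their values were seen. The windows and gene lists were chosen with earlier results of these data known. No test was made. Alternatives changed the q-value limit, the read minimum, weights, gaps and distances.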

Additional observations from a re-analysis of the deposited data

How the results depend on the processing

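No paired analysis was possible because the tables hold reads summed over replicates, so no replicate could be left out or used as a block. The search for TGTA in all windows was not run, since no genome sequence was used. The 3' UTR share of windows, 78.9%, was 87.0% at a q-value of at most 0.05, 86.4% with at least 50 IP reads, 80.7% weighted by IP reads, 77.4% as a mean over genes and 80.2% without windows in 4 or more other lists (added after seeing the data). The intron share, 7.87%, was 4.51%, 3.27% and 5.92% under the first 3 of these settings, 7.18% among windows in no other list and 7.56% without windows near hairpins (added after seeing the data). In runs of touching windows, 3' UTR windows had a share of 84.4% with gaps of up to 100 nt and 74.0% at the stricter q-value, and intron windows 41.5% and 34.2%. The strongest window lay near the gene end in 17.2% of genes within 100 nt, 41.1% within 300 nt, 31.1% ranked by the higher replicate and 26.2% by IP reads. Median GC content in 3' UTRs was 34.0% for windows of at least 90 nt and 33.3% with 1 window per gene, and in introns 36% with 1 window per gene. The stricter q-value left 113 of the 197 gene entries with a window on a lncRNA-class exon, and the read minimum 60. Among intron windows, 3.53% lay within 200 nt of a hairpin and 9.80% within 500 nt at the stricter q-value (both added after seeing the data). The other 7 of 32 values computed, among them the median number of windows per gene (3, or 2 with at least 50 IP reads), stayed within the interval or 1.5 times of the reported value. Low input counts limit single values: a window with 0 or 1 input read has no stable ratio.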
